A study of Caenorhabditis elegans with 22 samples.

Results

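The nuclear hormone receptor genes of Caenorhabditis elegans that carry an nhr name were described across 7 groups of young adult hermaphrodites. A gene was a member when its annotated symbol was nhr- followed by a number, with nhr-57 left out, and 253 of the 17118 genes with a single symbol on the array met that rule. Of these 253 genes, 92 had values at or above 3.68, the median of all values on the log2 scale, on at least 3 arrays and were tested, as were 9652 genes in all. The other 161 members were not tested. Of them, 142 were under that level on every array and 19 reached it on 1 or 2 arrays, with no value above 4.58.

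The groups were isp-1(qm150), nuo-6(qm200), wild type given 0.1 mM paraquat, isp-1(qm150) ced-4(n1162), nuo-6(qm200); ced-4(n1162), ced-4(n1162), and untreated wild type. There were 4 Affymetrix arrays of untreated wild type and 3 of every other group, and all groups were in the Bristol N2 background. Both double mutants and the ced-4 group carried the same ced-4 allele, and the paraquat group carried no mutation. isp-1 encodes the iron-sulfur subunit of mitochondrial complex III, nuo-6 a subunit of complex I, and ced-4 the adaptor that activates the caspase of the apoptosis pathway. Paraquat is a redox-cycling compound that produces superoxide. The study asked for an expression pattern shared by the mitochondrial mutants and paraquat. RNA came from whole worms, so fewer cells of a type and less RNA per cell cannot be told apart. The labels name the samples biological replicates without saying that they were separate cultures, and p-values therefore cover the spread between these arrays alone, part of which can be technical.

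Nuclear hormone receptors are transcription factors with a zinc-finger DNA-binding domain and, in most cases, a ligand-binding domain that small lipophilic molecules can occupy. The family is greatly expanded in nematodes, and most of its members there descend from a gene like the mammalian fat and glucose regulator HNF4. Some C. elegans members control fatty acid desaturation and oxidation (nhr-49 and its partners), some answer to diet, toxins or bacteria (nhr-10, nhr-68, nhr-114, nhr-8, nhr-86), and some time development (nhr-23, nhr-25). For most of the others no role is stated here.

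The ced-4 transcript lay between 5.53 and 5.83 in isp-1 ced-4, between 4.94 and 5.26 in nuo-6 ced-4 and between 5.62 and 5.89 in ced-4, below the 7.32 to 7.93 of wild type. The isp-1 and nuo-6 transcripts were not lower in their own mutants, so they do not check those labels. Several arrays lay as close to another group as to some arrays of their own. Over all tested probe sets, isp-1 replicate 1 correlated more closely with nuo-6 replicate 1 (r = 0.993) than with isp-1 replicate 2 (0.976) or isp-1 replicate 3 (0.967). Wild type replicate 1 correlated at 0.974 with wild type replicate 2, 0.965 with replicate 4 and 0.945 with replicate 3. With the 3 ced-4 arrays it correlated at 0.963 to 0.964. isp-1 ced-4 replicate 1 correlated at 0.974 with isp-1 ced-4 replicate 2, at 0.963 with isp-1 ced-4 replicate 3 and at 0.973 with isp-1 replicate 3. Several results that rest on these arrays are given with and without them. Marker lists for other tissues and stages also moved. The mean log2 level of 13 sperm markers, 10 of them tested, was 4.19 to 4.61 with paraquat and 3.50 to 5.13 in isp-1 ced-4. In wild type it was 6.25 to 7.16. It was also below every wild type array in isp-1, at 5.67 to 5.96, and in nuo-6, at 5.66 to 5.95. The range was 6.17 to 6.23 in ced-4 and 6.51 to 6.63 in nuo-6 ced-4. The molting hypodermis is the skin that makes a new cuticle at each molt. The mean of 14 of its markers, 12 of them tested, was 7.25 to 7.29 in nuo-6 ced-4 and 7.24 to 7.32 in ced-4. It was 4.14 to 4.39 in isp-1 ced-4 and 3.86 to 4.73 in wild type. The part of these shifts in the results on nhr genes was not tested.

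More nhr genes were higher than lower in both mitochondrial mutants. In isp-1, 22 of the 92 tested nhr genes were called higher and none lower than in wild type (limma, Benjamini-Hochberg adjusted p under 0.05). Among all genes 13% were called higher in isp-1 and 10.3% lower, 23.3% in all. In nuo-6, 32 nhr genes were called higher and 1 lower, against 18.2% of all genes higher and 15.7% lower. The total share of nhr genes called, 23.9% in isp-1 and 35.9% in nuo-6, was near the 23.3% and 33.9% of all genes. The split by direction differed from that of all genes, and that difference was not tested. The median difference from wild type over the 92 nhr genes was 0.25 in isp-1 and 0.32 in nuo-6 on the log2 scale, beside 0.05 and 0.03 over all tested genes. In isp-1, 14 called members were at least 2-fold higher, and in nuo-6 18 were. The share of all genes at 2-fold is not given here, so these counts do not set the family apart. Without isp-1 replicate 1, 20 nhr genes were higher and 2 lower in isp-1, and without wild type replicate 1 the counts were 23 and 2. With only the compared groups fitted, 9 were called in isp-1 and 19 in nuo-6, all higher. Both mutants are compared with the same wild type arrays.

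**Figure D1:**
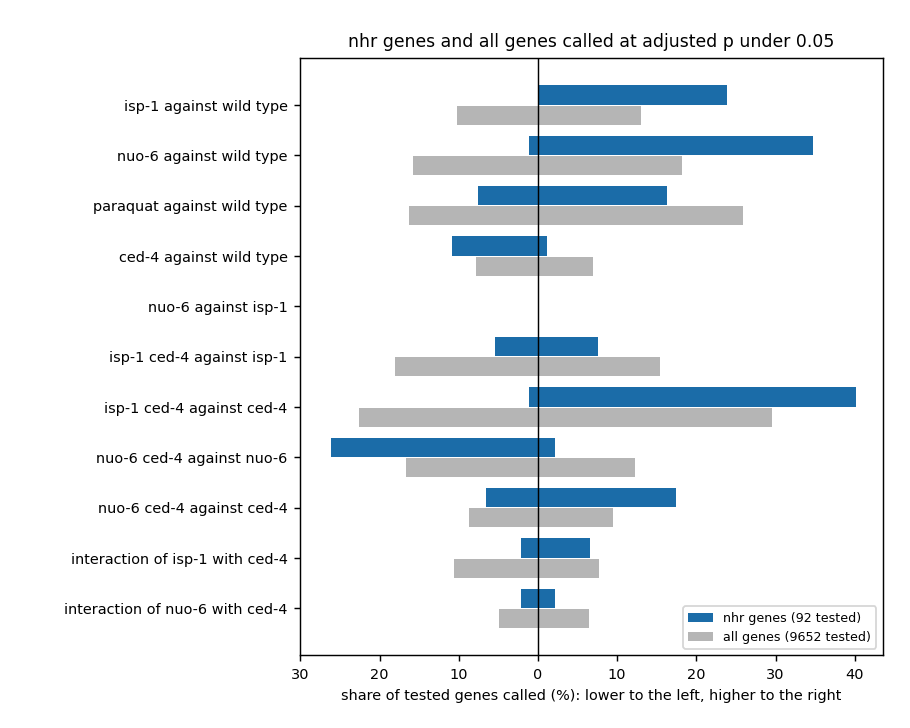
Share of tested genes called at adjusted p under 0.05 in each comparison, in percent, for the 92 tested nhr genes (blue) and all 9652 tested genes (grey). Bars to the right are genes higher in the first-named group and bars to the left genes lower in it; 22 nhr genes lie to the right and 0 to the left for isp-1, and 0 on both sides for nuo-6 against isp-1.

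Some of the genes that rose had little signal in wild type. Of the 22 members higher in isp-1, 7 were under 3.68 on all wild type arrays, a share of 31.8%, where the share was 11.6% among all genes called higher. In nuo-6 it was 9 of 32, or 28.1%, beside 11.7% of all genes called higher. At such low levels the size of a difference rests on the background correction and is uncertain. These genes passed the filter only through other groups and had little room to be called lower. The split by direction therefore does not stand as support for a rise of the family.

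The gene with the largest rise in isp-1 was nhr-61. Its log2 values were 5.51, 8.09 and 7.60 in isp-1, 5.86, 6.35 and 5.80 in nuo-6, and 3.91, 4.72, 5.09 and 4.05 in wild type. Every array of both mutants was above every wild type array, and isp-1 replicate 1 lay with the nuo-6 arrays rather than with the other isp-1 arrays. The difference was 2.62 in isp-1 (SE 0.42, adjusted p = 0.000403), a 6.15-fold change, and 1.56 in nuo-6. Without isp-1 replicate 1 it was 3.40 in isp-1. With only isp-1 and wild type fitted, nhr-61 was not called (limma, adjusted p = 0.0502).

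nhr-193 and nhr-115 were high in both mitochondrial mutants, alone and with ced-4. nhr-193 had 6.0, 5.24 and 4.94 in isp-1, 5.53, 5.38 and 5.94 in nuo-6, and 2.85, 2.85, 3.73 and 2.82 in wild type. The groups did not overlap, and wild type replicate 3 was the only wild type array above 3.68. Its rise was 2.33 in isp-1 (SE 0.27, adjusted p = 2.06e-05) and 2.56 in nuo-6 (SE 0.27, adjusted p = 4.15e-06). Without isp-1 replicate 1 the rise in isp-1 was 2.03. nhr-115 had 6.79, 6.30 and 5.93 in isp-1, 6.54, 5.09 and 6.34 in nuo-6, and 4.29, 4.51, 3.82 and 3.46 in wild type. Its lowest mutant array was still above the highest wild type array. Its rise was 2.32 in isp-1 (adjusted p = 0.000156) and 1.97 in nuo-6 (adjusted p = 0.000338).

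nhr-210 depended on a single array for its size. It stood at 7.59, 5.36 and 4.72 in isp-1, 7.02, 6.25 and 5.74 in nuo-6, and 4.36, 4.18, 3.33 and 4.30 in wild type. isp-1 replicate 1 was the highest of all these arrays. The rise in isp-1 was 1.85 (SE 0.48, adjusted p = 0.00985) with that array and 1.00 (adjusted p = 0.0466) without it. With only isp-1 and wild type fitted, it was not called (limma, adjusted p = 0.128). In nuo-6 nhr-210 rose by 2.29 (SE 0.48, adjusted p = 0.00153).

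nhr-230 and nhr-137 also rose in isp-1 with no overlap. nhr-230 had 5.72, 4.81 and 4.15 in isp-1 against 2.77, 3.18, 2.82 and 2.83 in wild type, and rose by 1.99 (SE 0.27, adjusted p = 7.74e-05). Without isp-1 replicate 1 its rise was 1.58. All its wild type arrays were under 3.68. nhr-137 had 7.88, 7.85 and 8.20 in isp-1 against 7.08, 6.54, 4.78 and 6.70 in wild type. Its wild type values spread widely, with replicate 3 the lowest. It rose by 1.70 (SE 0.40, adjusted p = 0.00552). With only isp-1 and wild type fitted, the rise of nhr-137 was not called (limma, adjusted p = 0.0914).

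In nuo-6 the largest rise was that of nhr-3, at 7.73, 8.18 and 7.91 against 7.54, 3.81, 4.69 and 3.84 in wild type. Wild type replicate 1 was close to the nuo-6 arrays and the other 3 wild type arrays were far below. The difference was 2.97 (SE 0.60, adjusted p = 0.00121), and a second probe set of nhr-3 gave 1.83 (adjusted p = 0.000234). Without wild type replicate 1 the first probe set gave 3.83. nhr-132 had 5.19, 5.96 and 5.04 in nuo-6 against 3.10, 3.81, 3.63 and 3.47 in wild type, with no overlap. It rose by 1.89 (SE 0.23, adjusted p = 1.32e-05). nhr-136 had 5.23, 4.51 and 4.53 in nuo-6 against 2.39, 3.40, 2.96 and 3.19 in wild type, and rose by 1.77 (SE 0.36, adjusted p = 0.00123). In isp-1 only replicate 1 was high for nhr-136, at 5.13, and the other isp-1 arrays, at 3.16 and 3.11, lay within the wild type range. The member called lower in nuo-6 was nhr-110, by -0.69, with arrays that overlapped wild type; it was named after its values were seen.

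**Figure D2:**
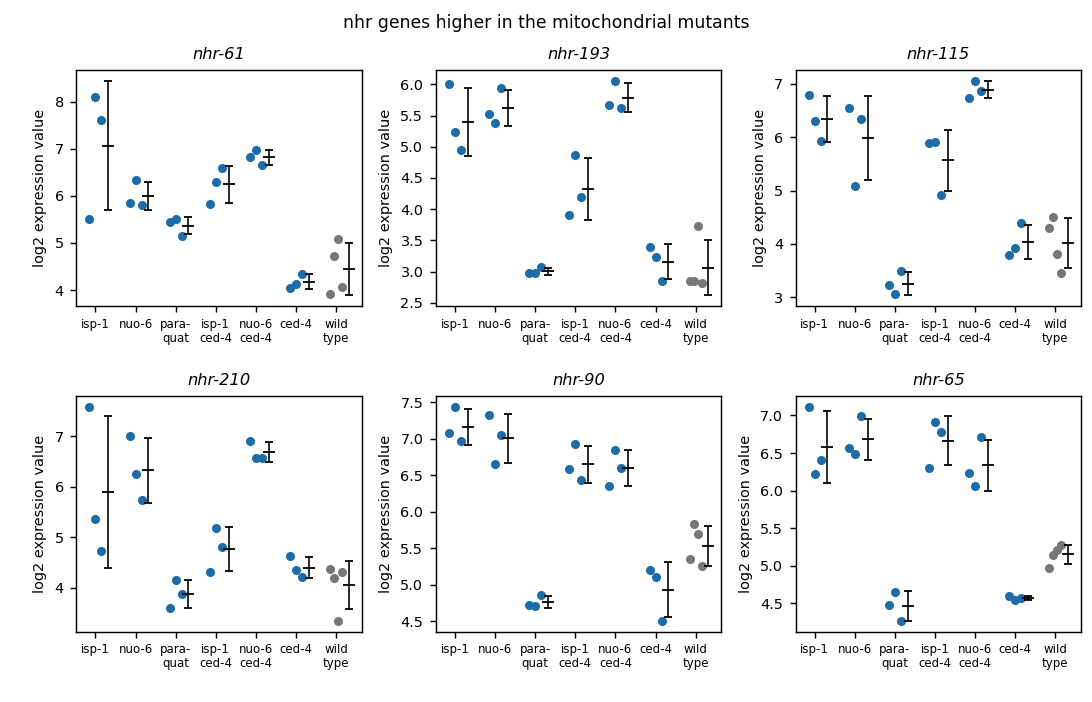
Log2 expression value of nhr-61, nhr-193, nhr-115, nhr-210, nhr-90 and nhr-65 on every array by group, with the group mean ± SD in black beside the points (n = 3 arrays per group, 4 for wild type, in grey). isp-1 replicate 1, the leftmost isp-1 point, is low for nhr-61 at 5.51 and high for nhr-210 at 7.59, and the paraquat arrays of nhr-90 and nhr-65 lie below wild type.

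Between nuo-6 and isp-1, limma called 0 of the 92 nhr genes, 14 had an unadjusted p under 0.05, and 0.0104% of all genes were called. Without isp-1 replicate 1, 9 nhr genes were called, 7 higher and 2 lower in nuo-6.

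Paraquat did not give the same picture. With paraquat 15 nhr genes were called higher and 7 lower than in wild type, or 23.9% of the members, beside 42.1% of all genes (25.9% higher and 16.2% lower). The median difference over the members was -0.06, beside 0.10 over all genes. The split depended on the scaling: after cyclic loess 13 nhr genes were higher and 16 lower, and after median centring 14 and 11. Loess moved the median difference of all genes with paraquat by -0.11. The number of nhr genes called lower was 13 without wild type replicate 1, 11 without wild type replicate 4 and 4 without paraquat replicate 3. Among 48 tested transcription factor genes with ceh, hlh, tbx, dmd or ztf names, 27 were higher and 4 lower with paraquat, 64.6% in all. In nuo-6 12 of them were higher and 3 lower, where 18.2% of all genes were higher and 15.7% lower. The difference between the families was not tested. All 10 tested sperm markers fell and all 16 oocyte and early embryo markers rose with paraquat, at 11.7 to 11.8 against 10.7 to 11.2 in wild type on average.

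Among called members whose arrays did not overlap, the largest rises with paraquat were in nhr-2, nhr-13, nhr-12, nhr-161, nhr-4 and nhr-20. nhr-12 had 7.52, 7.08 and 6.86 with paraquat against 6.0, 6.09, 5.22 and 4.79 in wild type, and rose by 1.63 (SE 0.26, adjusted p = 6.55e-05). nhr-161 had 4.66, 4.25 and 3.97 against 2.89, 3.18, 2.47 and 2.92, and rose by 1.43 (SE 0.21, adjusted p = 3.09e-05), and all its wild type arrays were under 3.68. The paraquat arrays lay above every wild type array for both genes. nhr-4 rose by 1.27 (SE 0.18, adjusted p = 2.74e-05) and nhr-20 by 1.26 (SE 0.20, adjusted p = 5.19e-05), also with no overlap. nhr-2 and nhr-13 have known roles and are described with their lists.

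A set of 3 members was lower with paraquat and higher in both mitochondrial mutants. The share of all genes with that pattern is not given here, so the count does not set the family apart. nhr-90 had 7.07, 7.44 and 6.97 in isp-1, 7.32, 6.65 and 7.05 in nuo-6, 4.72, 4.70 and 4.86 with paraquat, and 5.36, 5.83, 5.69 and 5.25 in wild type. The mutant arrays were all above wild type and the paraquat arrays all below it. The differences from wild type were 1.63 in isp-1, 1.47 in nuo-6 and -0.77 with paraquat (SE 0.20, adjusted p = 0.00506). nhr-65 had 7.12, 6.22 and 6.41 in isp-1, 6.56, 6.49 and 7.0 in nuo-6, 4.48, 4.66 and 4.26 with paraquat, and 4.97, 5.14, 5.21 and 5.28 in wild type. Its differences were 1.43, 1.53 and -0.68. The fall of nhr-65 with paraquat (adjusted p = 0.0127) was not called without paraquat replicate 3 (-0.58) or on its other probe set (-0.21). nhr-132 fell by 0.65 with paraquat (adjusted p = 0.0282), which was not called without wild type replicate 2 (-0.55), wild type replicate 3 (-0.61), paraquat replicate 1 (-0.57) or paraquat replicate 3 (-0.62). These differences share the wild type arrays, and paraquat was not tested against the mutants.

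nhr-110, nhr-76 and nhr-107 also fell with paraquat. nhr-110 had 4.37, 3.78 and 4.76 with paraquat against 5.76, 5.44, 5.07 and 4.92 in wild type, and fell by 1.00 (SE 0.26, adjusted p = 0.00456). nhr-76 had 3.39, 2.96 and 3.04 against 4.85, 3.79, 3.71 and 4.44, and fell by 1.07 (SE 0.22, adjusted p = 0.000776), while its other probe set differed by 0.21 and was not called (adjusted p = 0.348). All its paraquat arrays were under 3.68. nhr-107 fell by 0.60 (adjusted p = 0.0222), and its other probe set differed by -0.50 and was not called. The call ended without wild type replicate 3 (-0.47) or paraquat replicate 3 (-0.49). The members called higher in isp-1, nuo-6 and paraquat at once were nhr-21, nhr-161 and nhr-181. They were named after their values were seen, and the share of all genes with that pattern is not given here.

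In ced-4, 10 nhr genes were called lower and 1 higher than in wild type, 12% of the members beside 14.9% of all genes (7.01% higher and 7.86% lower). After median centring 7 were lower and 3 higher. Without wild type replicate 1 the counts were 15 lower and 5 higher, and without ced-4 replicate 2 or ced-4 replicate 3 they were 3 and 1. nhr-42 had 4.84, 4.31 and 3.89 in ced-4 against 4.88, 5.98, 7.12 and 6.30 in wild type, and fell by 1.72 (SE 0.38, adjusted p = 0.00491). nhr-88 had 8.03, 7.86 and 7.98 against 8.44, 9.70, 10.08 and 9.67, and fell by 1.51 (SE 0.26, adjusted p = 0.000491), while its other probe set differed by -1.22 and was not called (adjusted p = 0.120). nhr-105 had 5.54, 5.20 and 5.69 against 5.80, 7.07, 7.43 and 7.22, and fell by 1.41 (SE 0.35, adjusted p = 0.00985). For these 3 genes wild type replicate 1 lay next to the ced-4 arrays and the other wild type arrays well above. Without wild type replicate 1 the falls were 2.12 for nhr-42, 1.86 for nhr-88 and 1.77 for nhr-105. The fall of nhr-105 was not called without ced-4 replicate 2 (-1.27).

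Smaller falls in ced-4 were those of nhr-70, by 0.78 (SE 0.19, adjusted p = 0.00879), and nhr-179, by 0.51 (SE 0.15, adjusted p = 0.0317). The nhr-70 call ended without ced-4 replicate 3 (-0.66). The nhr-179 call ended when any of wild type replicate 1, 3 or 4 or ced-4 replicate 2 or 3 was left out, with differences between -0.52 and -0.42. nhr-3 was the member called higher, with 7.51, 7.41 and 7.48 in ced-4 against 7.54, 3.81, 4.69 and 3.84 in wild type. The groups overlapped through wild type replicate 1, the difference was 2.50 (adjusted p = 0.00806), and the second probe set of nhr-3 gave 0.70 (adjusted p = 0.123). In ced-4, 10 of the 12 molting hypodermis markers rose.

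The mitochondrial mutations could also be read in the ced-4 background, on arrays that do not overlap those of the single mutants and wild type. The ced-4 arrays varied less than those of wild type, with a median SD over nhr genes of 0.18 against 0.43. The number of calls can therefore not be compared between these backgrounds. In isp-1 ced-4 relative to ced-4, 37 nhr genes were higher and 1 lower, 41.3% of the members beside 52.1% of all genes (29.5% higher and 22.6% lower). The median difference was 0.46 over the members and 0.14 over all genes. Of the 22 members higher in isp-1, 17 (77.3%) were also higher in isp-1 ced-4 relative to ced-4, or 45.9% of its 37, and all 22 had the same sign. Among all genes the shares were 64.3% and 28.3%, and 1078 of the 1254 higher in isp-1 had the same sign. In nuo-6 ced-4 relative to ced-4, 16 nhr genes were higher and 6 lower, 23.9% beside 18.2% of all genes (9.51% higher and 8.68% lower). Of the 32 members higher in nuo-6, 13 (40.6%) were higher there too, or 81.2% of its 16, and among all genes the shares were 33.8% and 64.7%. The sign was the same for 27 of these 32 members and for 1403 of the 1758 genes higher in nuo-6. Of the members higher than in ced-4, 12 of the 37 in isp-1 ced-4 (32.4%, beside 10.7% of all genes called higher) and 8 of the 16 in nuo-6 ced-4 (50%, beside 16.6%) had every ced-4 array under 3.68. These genes passed the filter only through other groups, so the counts do not stand as support for a repeated rise. In isp-1 ced-4 relative to ced-4, 9 of 10 sperm markers fell, 15 of 16 oocyte markers rose and 10 of 12 molting markers fell. In nuo-6 ced-4 relative to ced-4, 1 sperm marker and 1 molting marker rose and 3 oocyte markers fell.

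Several of the same genes rose in the ced-4 background. nhr-61 had 5.82, 6.30 and 6.60 in isp-1 ced-4, with 6.82, 6.98 and 6.66 in nuo-6 ced-4, against 4.05, 4.13 and 4.35 in ced-4. Its rise was 2.06 in isp-1 ced-4 (SE 0.45, adjusted p = 0.00112), with 2.64 in nuo-6 ced-4 (SE 0.45, adjusted p = 0.000576). Every double mutant array lay above every ced-4 array. nhr-193 had 5.67, 6.05 and 5.63 in nuo-6 ced-4 against 3.39, 3.24 and 2.85 in ced-4, all under 3.68, and rose by 2.62 (adjusted p = 7.82e-06). nhr-115 had 6.73, 7.05 and 6.86 in nuo-6 ced-4 against 3.80, 3.92 and 4.40 in ced-4, and rose by 2.84 (adjusted p = 3.08e-05). nhr-210 rose by 2.29 in nuo-6 ced-4 (adjusted p = 0.00439).

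Other members rose in isp-1 ced-4 relative to ced-4. nhr-65 had 6.30, 6.92 and 6.78 against 4.59, 4.54 and 4.57, a rise of 2.10 (SE 0.22, adjusted p = 8.89e-07), and its other probe set rose by 1.19. nhr-137 rose by 2.12 (SE 0.42, adjusted p = 0.000529), nhr-21 by 1.87 (SE 0.36, adjusted p = 0.000425) and nhr-105 by 1.86 (SE 0.37, adjusted p = 0.000523). nhr-105 also rose in nuo-6 ced-4, by 1.85 (adjusted p = 0.00205), and its arrays in both double mutants, from 7.18 to 7.53, were above the 5.20 to 5.69 of ced-4 and near wild type replicates 2 to 4, at 7.07 to 7.43.

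**Figure D3:**
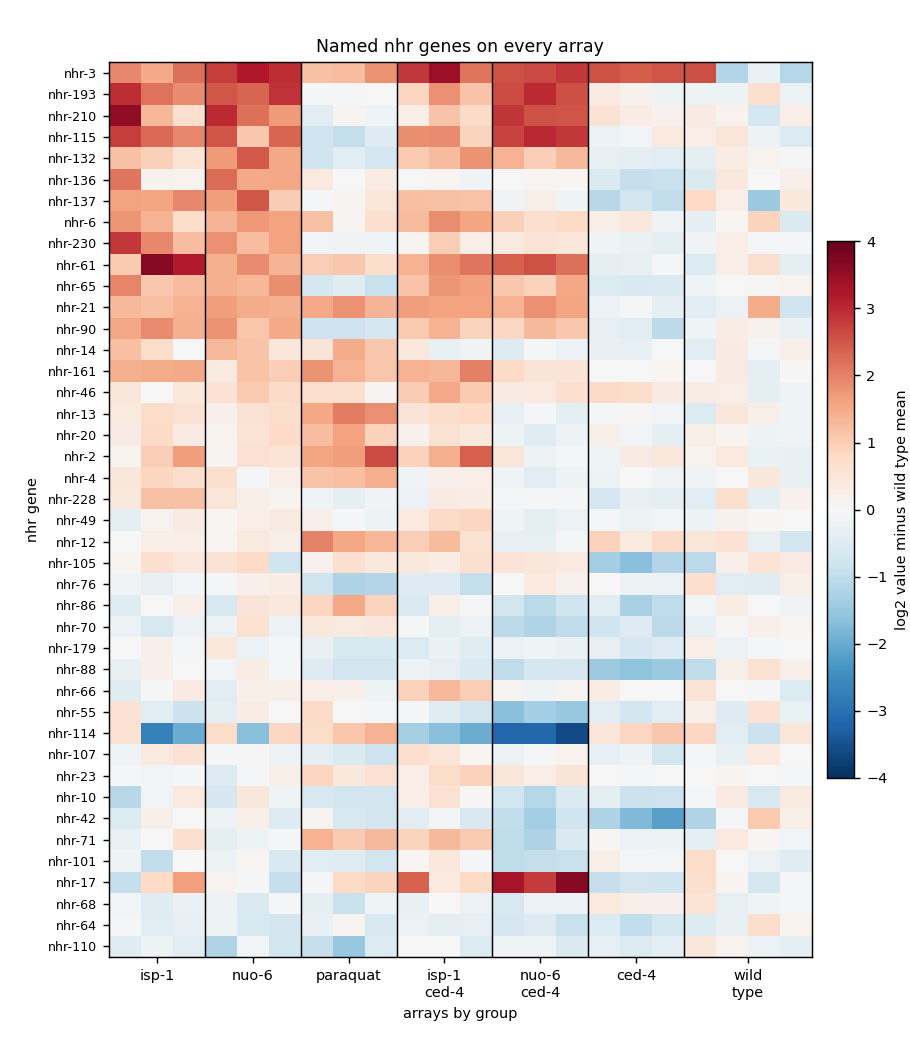
The 42 named nhr genes (rows, ordered by their difference between nuo-6 and wild type) on each of the 22 arrays (columns, by group), coloured by log2 value minus the wild type mean, red for higher and blue for lower. nhr-193 and nhr-115 are red on all isp-1, nuo-6 and nuo-6 ced-4 arrays, and wild type replicate 1 is red for nhr-3 and blue for nhr-42, nhr-88 and nhr-105.

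Adding ced-4 to each mitochondrial mutation had unlike results. In isp-1 ced-4 relative to isp-1, 7 nhr genes were higher and 5 lower, 13% of the members beside 33.5% of all genes (15.5% higher and 18% lower). After cyclic loess 8 members were higher and 3 lower, beside 1352 higher and 1769 lower among all genes. In nuo-6 ced-4 relative to nuo-6, 2 were higher and 24 lower, 28.3% beside 28.8% of all genes (12.2% higher and 16.6% lower), with a median difference of -0.32 beside -0.07 over all genes. After median centring 4 were higher and 16 lower. That count of 26 was 13 without nuo-6 replicate 2, 15 without nuo-6 ced-4 replicate 1, 16 without nuo-6 ced-4 replicate 2 and 16 without nuo-6 ced-4 replicate 3. In the same comparison 11 of 12 molting markers rose and 11 of 16 oocyte markers fell. In isp-1 ced-4 relative to isp-1, 9 of 10 sperm markers fell and 6 oocyte markers rose.

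nhr-17 had the largest rise of any tested member. It had 7.39, 6.88 and 7.71 in nuo-6 ced-4, against 4.21, 4.05 and 3.16 in nuo-6, 3.16, 3.34 and 3.28 in ced-4, and 4.71, 4.18, 3.39 and 4.04 in wild type. Each nuo-6 ced-4 array was above every array of those groups. It rose by 3.52 against nuo-6 (SE 0.55, adjusted p = 0.000138) and by 4.07 against ced-4 (SE 0.55, adjusted p = 6.64e-05), a 16.7-fold change over ced-4 arrays that were all under 3.68. The interaction of nuo-6 with ced-4, which is the effect of nuo-6 in the ced-4 background minus its effect alone, was 4.34 (SE 0.76, adjusted p = 0.00298), and it was called whichever array was left out. nhr-17 also rose in isp-1 ced-4 relative to ced-4, by 1.99 (SE 0.55, adjusted p = 0.00611), with 6.43, 4.46 and 4.87 on the isp-1 ced-4 arrays, and the isp-1 arrays were spread from 3.15 to 5.71.

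nhr-114, a receptor that protects the germline on some bacterial diets, moved the other way. It had 4.33, 4.33 and 3.88 in nuo-6 ced-4 against 8.20, 5.80 and 8.31 in nuo-6, 7.96, 8.30 and 8.57 in ced-4, and 8.32, 7.01, 6.63 and 7.95 in wild type. The nuo-6 ced-4 arrays were below all of these, and nuo-6 replicate 2 was well below the other nuo-6 arrays. It fell by 3.26 against nuo-6 (SE 0.69, adjusted p = 0.00196) and by 4.10 against ced-4 (SE 0.69, adjusted p = 0.000514), with an interaction of -4.06 (SE 0.95, adjusted p = 0.0134) that was called whichever array was left out. In isp-1 ced-4 it had 6.14, 5.82 and 5.48 and fell by 2.46 against ced-4 (adjusted p = 0.00672). The isp-1 arrays were split, with 8.10 on replicate 1 and 4.76 and 5.51 on the others, and isp-1 was not called against wild type.

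**Figure D4:**
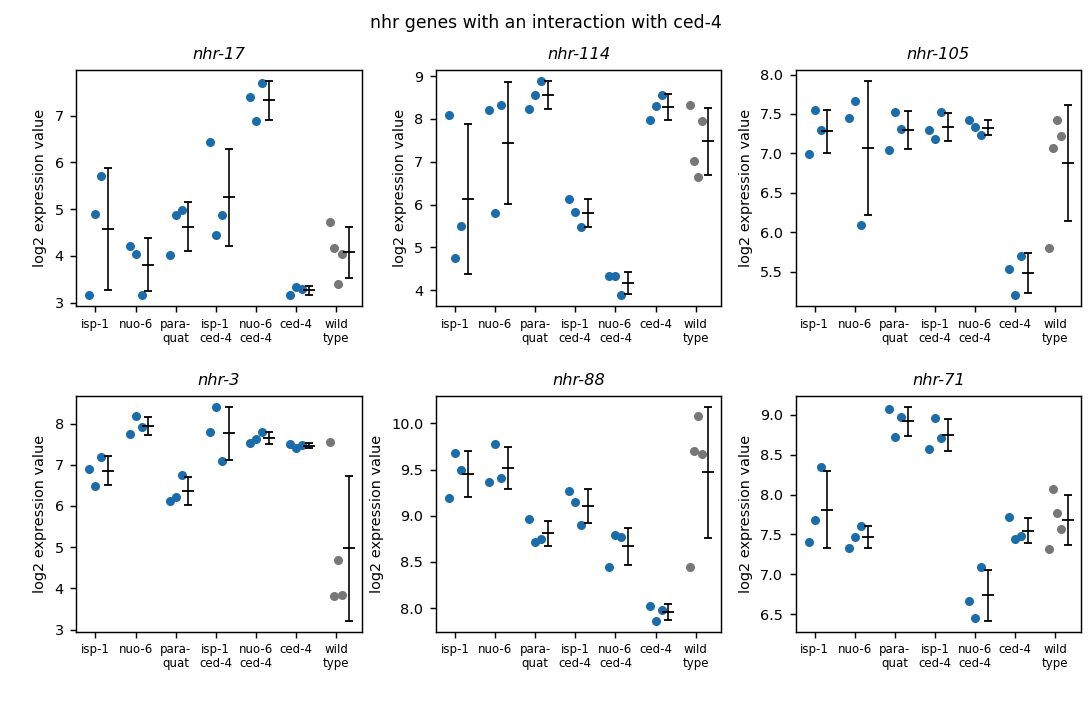
Log2 expression value of nhr-17, nhr-114, nhr-105, nhr-3, nhr-88 and nhr-71 on every array by group, with the group mean ± SD in black beside the points (n = 3 arrays per group, 4 for wild type, in grey). nhr-17 is highest and nhr-114 lowest in nuo-6 ced-4, and wild type replicate 1, the leftmost grey point, lies by the ced-4 arrays for nhr-105, nhr-3 and nhr-88.

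The interactions of isp-1 with ced-4 were called for 8 nhr genes, 6 higher and 2 lower, or 8.7% beside 18.4% of all genes (7.76% higher and 10.6% lower), and after loess 7 were higher and 0 lower. Those of nuo-6 with ced-4 were called for 4, 2 each way, or 4.35% beside 11.4% of all genes (6.49% higher and 4.91% lower), and after loess 3 were higher and 1 lower. Among all genes loess gave 614 higher and 1049 lower for the isp-1 interaction, and 653 and 370 for that of nuo-6. The isp-1 count ranged from 0 by limma without ced-4 replicate 3, where 13 members had an unadjusted p under 0.05, to 11 without wild type replicate 1. It was also 1 without ced-4 replicate 2 or isp-1 ced-4 replicate 3, 2 without wild type replicate 2 or isp-1 replicate 2, 3 without ced-4 replicate 1 or isp-1 ced-4 replicate 2, 4 without isp-1 replicate 1 and 5 without isp-1 ced-4 replicate 1. The nuo-6 count was 8 without wild type replicate 1, and 2 without wild type replicate 4, any ced-4 array or any nuo-6 ced-4 array. Among called members the largest isp-1 interactions were those of nhr-230 (-1.26, SE 0.39, adjusted p = 0.0326), nhr-193 (-1.17, SE 0.40, adjusted p = 0.0488), nhr-88 (1.16, SE 0.38, adjusted p = 0.0425), nhr-71 (1.07, SE 0.31, adjusted p = 0.0235) and nhr-66 (1.03, SE 0.34, adjusted p = 0.0431). Each of these 5 calls ended without isp-1 replicate 1, at -0.84 for nhr-230, -0.87 for nhr-193, 1.03 for nhr-88, 0.87 for nhr-71 and 0.82 for nhr-66. Other arrays mattered too. Of 13 arrays left out in turn, 7 ended the call of nhr-230, 10 that of nhr-193, 11 that of nhr-88, 5 that of nhr-71 and 9 that of nhr-66. The nuo-6 interaction of nhr-105 (1.67, adjusted p = 0.0434) was lost without any of 10 of the 13 arrays, and was 1.18 without nuo-6 replicate 3. That of nhr-3 (-2.79, adjusted p = 0.0482) was lost without any of 12 of the 13, at -2.90 to -2.41, and its second probe set gave -1.81 (adjusted p = 0.0163).

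nhr-71 was high with paraquat or isp-1 ced-4 and low in nuo-6 ced-4. It had 9.08, 8.72 and 8.97 with paraquat, 8.57, 8.97 and 8.71 on the isp-1 ced-4 arrays, 6.67, 6.45 and 7.09 in nuo-6 ced-4, 7.72, 7.44 and 7.47 in ced-4, and 7.32, 8.07, 7.77 and 7.56 in wild type. Neither high group overlapped wild type, and the nuo-6 ced-4 arrays were below all others. It rose by 1.24 with paraquat and by 0.94 in isp-1 ced-4 relative to isp-1 (SE 0.23, adjusted p = 0.0043). It fell by 0.81 in nuo-6 ced-4 relative to ced-4 (adjusted p = 0.0181), which was not called without ced-4 replicate 1 (-0.73), nuo-6 ced-4 replicate 1 (-0.78) or nuo-6 ced-4 replicate 2 (-0.67). Its other probe set differed by 0.45 in isp-1 ced-4 relative to isp-1 and by -0.17 in nuo-6 ced-4 relative to ced-4, not called in either case. nhr-46 rose by 0.92 in isp-1 ced-4 relative to isp-1 (SE 0.22, adjusted p = 0.00436), and its other probe set differed by 0.25 (adjusted p = 0.413).

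Among the other members named in isp-1 ced-4 relative to isp-1, nhr-230 had 3.02, 3.88 and 3.18 against 5.72, 4.81 and 4.15 and fell by 1.53 (SE 0.29, adjusted p = 0.000961). nhr-193 had 3.91, 4.88 and 4.20 against 6.0, 5.24 and 4.94 and fell by 1.07 (adjusted p = 0.00949), and the call ended without isp-1 replicate 1 (-0.77). Neither gene's arrays overlapped between the 2 groups. nhr-228 fell by 0.80, nhr-4 by 0.56 and nhr-179 by 0.48, and nhr-12 rose by 0.76 (adjusted p = 0.0424). Of the 6 arrays, leaving out any of 3 ended the call of nhr-228, any of 4 those of nhr-4 and nhr-179, and any of 5 that of nhr-12. The smallest differences were -0.62 for nhr-228 and -0.43 for nhr-4 without isp-1 ced-4 replicate 1, -0.41 for nhr-179 without isp-1 replicate 2 and 0.61 for nhr-12 without isp-1 ced-4 replicate 2.

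In nuo-6 ced-4 relative to nuo-6 the next falls were those of nhr-137, with 6.14, 6.51 and 6.11 against 7.93, 8.77 and 7.28 (-1.74, SE 0.42, adjusted p = 0.00504), and nhr-136, with 3.01, 3.07 and 3.06 against 5.23, 4.51 and 4.53 (-1.71, SE 0.38, adjusted p = 0.00275). nhr-55 fell by 1.51 (SE 0.33, adjusted p = 0.00244) and nhr-70 by 1.14 (SE 0.20, adjusted p = 0.000467). No array of nuo-6 ced-4 reached the lowest nuo-6 array for these 4 genes. Against ced-4, nhr-55 fell by 0.98 (adjusted p = 0.0481), nhr-101 by 0.98 (adjusted p = 0.0192) and nhr-12 by 0.92 (adjusted p = 0.0285). The nhr-55 call ended whichever array was left out, with differences from -1.08 to -0.90. Those of nhr-101 and nhr-12 ended without ced-4 replicate 1 (-0.88 and -0.80), nuo-6 ced-4 replicate 1 (-0.95 and -0.87) or nuo-6 ced-4 replicate 2 (-0.99 and -0.88), and that of nhr-12 also without ced-4 replicate 3 (-0.88).

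Of 8 receptors with known roles in lipid metabolism 7 were tested; nhr-62 was not among the genes named on the array. In isp-1 and with paraquat 1 was higher and in ced-4 1 was lower, 14.3% in each case, beside 23.3%, 42.1% and 14.9% of all genes. In nuo-6 limma called none (3 had an unadjusted p under 0.05), beside 33.9% of all genes. In isp-1 ced-4 relative to ced-4 3 were higher, 42.9% beside 52.1% of all genes. nhr-49, which drives fatty acid desaturation and oxidation genes, had 9.94, 10.45 and 10.62 in isp-1, 10.70, 11.08 and 11.16 in isp-1 ced-4, 10.22, 10.10 and 10.19 in ced-4, and 10.10, 10.47, 10.36 and 10.28 in wild type. The isp-1 ced-4 arrays were above all the others, and isp-1 overlapped wild type. nhr-49 rose by 0.81 in isp-1 ced-4 relative to ced-4 (SE 0.17, adjusted p = 0.000749) and by 0.64 against isp-1 (SE 0.17, adjusted p = 0.00757), and its other probe set gave 1.23, and 0.29 against isp-1, which was not called (adjusted p = 0.342). In nuo-6 ced-4 relative to nuo-6 it fell by 0.50 (SE 0.17, adjusted p = 0.0315), which was not called without nuo-6 replicate 2 (-0.48), nuo-6 replicate 3 (-0.45), nuo-6 ced-4 replicate 2 (-0.44) or nuo-6 ced-4 replicate 3 (-0.52). There the other probe set fell by 1.02 (adjusted p = 0.00252), and in ced-4 its difference was -0.65 (adjusted p = 0.0440), where the first was not called.

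nhr-66, a partner of NHR-49, had 10.12, 10.47 and 10.17 in isp-1 ced-4 against 8.71, 9.13 and 9.52 in isp-1 and 9.48, 9.19 and 9.19 in ced-4. The isp-1 ced-4 arrays did not overlap either group. It rose by 1.13 against isp-1 (SE 0.25, adjusted p = 0.00254) and by 0.97 against ced-4 (SE 0.25, adjusted p = 0.0037), and its other probe set rose by 1.22 and 1.14. nhr-13, another partner, had 5.97, 6.49 and 6.27 with paraquat against 3.88, 4.89, 4.67 and 4.27 in wild type. Each paraquat array was above every other array of nhr-13. It rose by 1.81 with paraquat (SE 0.20, adjusted p = 2.22e-06) and by 0.73 in isp-1 ced-4 relative to ced-4 (SE 0.21, adjusted p = 0.00834). The rise of nhr-13 in isp-1, 0.57 (adjusted p = 0.0453), was not called without wild type replicate 1 (0.39), wild type replicate 4 (0.52), isp-1 replicate 2 (0.49) or isp-1 replicate 3 (0.56). Its fall in nuo-6 ced-4 relative to nuo-6, by 0.74 (adjusted p = 0.0132), was not called without nuo-6 replicate 3 (-0.64) or nuo-6 ced-4 replicate 3 (-0.69). nhr-64 fell by 0.74 in ced-4 (adjusted p = 0.0402). That call ended without wild type replicate 3 (-0.51), wild type replicate 4 (-0.69), ced-4 replicate 1 (-0.85), ced-4 replicate 2 (-0.62) or ced-4 replicate 3 (-0.76). nhr-80 and nhr-69 were called in no comparison, and nor was nhr-28 on the probe set that stood for it. The other probe set of nhr-28, which may bind related transcripts, rose by 0.99 in nuo-6 (adjusted p = 0.00105) and by 0.71 in isp-1 ced-4 relative to ced-4 (adjusted p = 0.00872), and fell by 1.27 in nuo-6 ced-4 relative to nuo-6 (adjusted p = 0.000221).

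**Figure D5:**
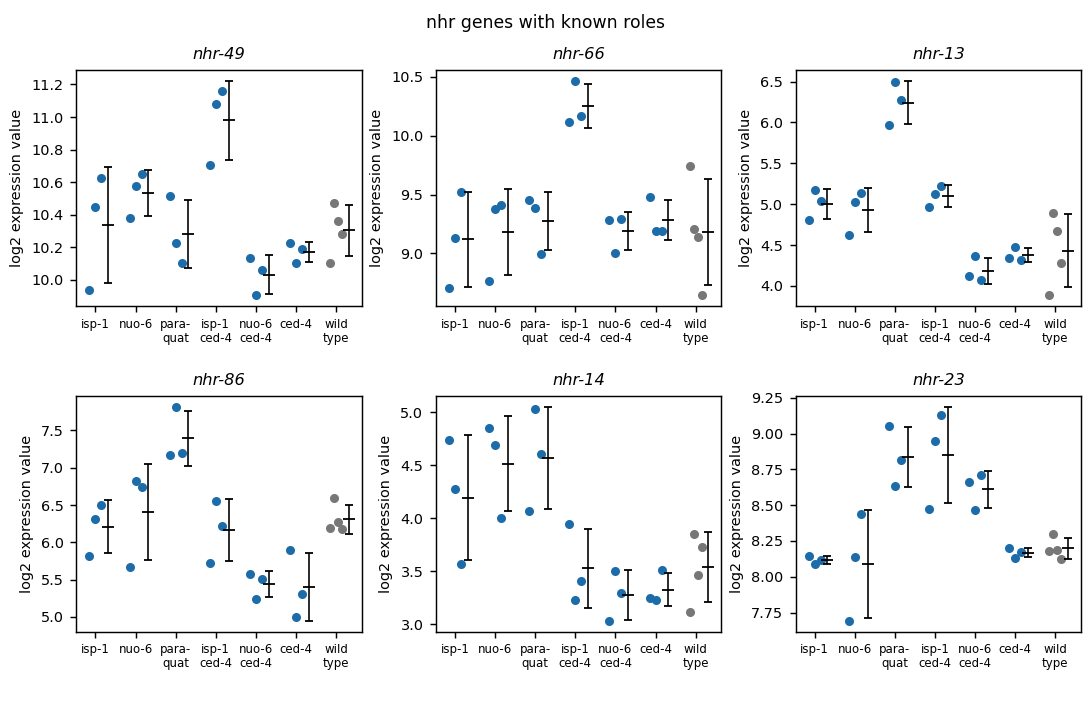
Log2 expression value of nhr-49, nhr-66, nhr-13, nhr-86, nhr-14 and nhr-23 on every array by group, with the group mean ± SD in black beside the points (n = 3 arrays per group, 4 for wild type, in grey). The paraquat arrays of nhr-13 lie at 5.97 to 6.49, above every other array, and the isp-1 ced-4 arrays of nhr-49 and nhr-66 lie above the other groups.

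Genes that NHR-49 acts with or controls were measured beside it. fat-7, a stearoyl-CoA desaturase, fell by 2.75 in isp-1, by 2.16 in nuo-6 and by 2.31 with paraquat against wild type, and relative to ced-4 it fell by 4.43 in isp-1 ced-4 and by 6.11 for nuo-6 ced-4. nhr-49 was not called in isp-1, nuo-6, paraquat or nuo-6 ced-4 in those comparisons. acs-2, an acyl-CoA synthetase of fat oxidation, had 5.15, 5.26 and 5.69 in ced-4 against 7.38, 9.26, 10.6 and 9.84 in wild type and fell by 3.91. The ced-4 arrays of acs-2 were below all wild type arrays, of which replicate 1 was the lowest. Relative to ced-4, acs-2 rose by 5.29 in isp-1 ced-4, with a rise of 4.85 in nuo-6 ced-4. fmo-2, a flavin monooxygenase, rose by 4.01 in nuo-6 relative to wild type. mdt-15, a mediator subunit that binds NHR-49, rose by 0.93 with paraquat and fell by 1.54 in nuo-6 ced-4 relative to nuo-6. Of the 8 genes on that list, all tested, 2 were higher and 2 lower in isp-1 ced-4 relative to ced-4, 50% beside 52.1% of all genes. In nuo-6 ced-4 relative to ced-4 2 were higher and 1 lower, 37.5% beside 18.2% of all genes. Counts for isp-1, nuo-6 and paraquat are not given here, so fat-7 does not stand for the list. The mean log2 level of the 8 genes was 8.78 to 9.31 in nuo-6, above the 7.94 to 8.50 of wild type. It was 7.85 to 8.85 in isp-1 and 8.05 to 8.60 with paraquat, which both overlapped wild type.

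Of 8 receptors that answer to nutrients, toxins or bacteria 7 were tested; nhr-48 was not. With paraquat 2 were higher, 28.6% beside 42.1% of all genes, and in nuo-6 ced-4 relative to nuo-6 3 were lower, 42.9% beside 28.8%. nhr-86, a sensor of bacterial metabolites, had 7.18, 7.82 and 7.19 with paraquat, 5.90, 5.0 and 5.30 in ced-4, and 6.19, 6.59, 6.28 and 6.17 in wild type. Paraquat and ced-4 lay on opposite sides of wild type with no overlap. nhr-86 rose by 1.09 with paraquat (SE 0.28, adjusted p = 0.00448) and fell by 0.91 in ced-4 (SE 0.28, adjusted p = 0.0361). The ced-4 call ended without wild type replicate 2 (-0.81), 3 (-0.92) or 4 (-0.95) or ced-4 replicate 2 (-0.71) or 3 (-0.86). Its rise in isp-1 ced-4 relative to ced-4 was 0.77 (adjusted p = 0.0409) and ended without ced-4 replicate 2 (0.57) or 3 (0.72) or isp-1 ced-4 replicate 2 (0.57) or 3 (0.74). Its fall in nuo-6 ced-4 relative to nuo-6 was 0.97 (adjusted p = 0.0219) and ended without nuo-6 replicate 2 (-0.76), nuo-6 replicate 3 (-0.80) or nuo-6 ced-4 replicate 2 (-0.87).

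nhr-14, which acts in iron uptake and defence against bacteria, had 4.85, 4.69 and 4.01 in nuo-6 and 4.07, 5.03 and 4.61 with paraquat, against 3.11, 3.85, 3.46 and 3.73 in wild type. Both groups were above wild type on every array. It rose by 0.98 in nuo-6 (SE 0.28, adjusted p = 0.0137) and by 1.03 with paraquat (SE 0.28, adjusted p = 0.00708). The nuo-6 call ended without nuo-6 replicate 1 (0.81) or nuo-6 replicate 2 (0.89), and the paraquat call without paraquat replicate 2 (0.80). In nuo-6 ced-4 it had 3.03, 3.50 and 3.29, all under 3.68, and fell by 1.24 against nuo-6 (SE 0.30, adjusted p = 0.00528).

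nhr-10 and nhr-68 switch on the propionate shunt when vitamin B12 is low. nhr-10 rose by 0.98 in isp-1 ced-4 relative to ced-4 (SE 0.34, adjusted p = 0.0226), which was not called without ced-4 replicate 2 (0.90), ced-4 replicate 3 (0.90) or isp-1 ced-4 replicate 2 (0.84). The other probe set of nhr-10, which may bind related transcripts, rose by 1.53 there (adjusted p = 0.00908), and it differed by -1.44 in ced-4 worms and -1.55 in nuo-6 ced-4 relative to nuo-6 (adjusted p = 0.0271 and 0.0149), where the first was not called. nhr-68 fell by 0.65 in nuo-6 ced-4 relative to ced-4 (SE 0.22, adjusted p = 0.0482), a call that ended whichever array was left out, with differences from -0.72 to -0.51. All 5 propionate shunt genes tested fell with paraquat, from -0.69 for hphd-1 to -0.34 for alh-8, beside 16.2% of all genes. In isp-1 and in nuo-6 3 of the 5 fell: hach-1 by 1.08 and 0.77, hphd-1 by 0.72 and 0.44, and alh-8 by 0.40 and 0.37. Among all genes 10.3% were called lower in isp-1 and 15.7% in nuo-6. nhr-8, a regulator of toxin resistance and cholesterol balance, and nhr-45 were called in no comparison; nhr-8 differed by 1.05 in ced-4 (adjusted p = 0.0620).

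Of 10 developmental receptors 4 were tested, and nhr-25, nhr-41, nhr-85, nhr-67, nhr-91 and nhr-60 were not. With paraquat 2 were higher, 50% beside 42.1% of all genes, and in isp-1 ced-4 relative to ced-4 3 were higher, 75% beside 52.1%. nhr-23, the ROR-type receptor needed for molting, had 9.05, 8.63 and 8.82 with paraquat, 8.47, 8.95 and 9.13 on the isp-1 ced-4 arrays, 8.66, 8.46 and 8.71 in nuo-6 ced-4, 8.20, 8.13 and 8.17 in ced-4, and 8.18, 8.30, 8.19 and 8.13 in wild type. The ced-4 arrays lay within the wild type range, although molting markers were higher in ced-4, and the paraquat and double mutant arrays lay above it. nhr-23 rose by 0.64 with paraquat (SE 0.16, adjusted p = 0.00397), 0.68 in isp-1 ced-4 relative to ced-4 (SE 0.17, adjusted p = 0.00328) and by 0.73 against isp-1 (SE 0.17, adjusted p = 0.00392). Against nuo-6 its rise in nuo-6 ced-4 was 0.52 (adjusted p = 0.0296) and ended without nuo-6 replicate 1 (0.33), nuo-6 replicate 2 (0.55), nuo-6 ced-4 replicate 1 (0.50) or nuo-6 ced-4 replicate 3 (0.47).

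nhr-2, expressed in the early embryo, had 5.16, 5.24 and 6.18 with paraquat and 4.48, 5.02 and 5.95 in isp-1 ced-4, against 3.41, 3.88 and 3.98 in ced-4 and 3.71, 3.97, 3.32 and 3.29 in wild type. The mean of the oocyte and early embryo markers was also highest with paraquat and in isp-1 ced-4, where it was 11.35 to 11.60. It was 11.04 to 11.34 in isp-1, 11.04 to 11.27 in nuo-6 and 10.69 to 11.21 in wild type. nhr-2 was not called in isp-1 or nuo-6. A link between these markers and nhr-2 was not tested. nhr-2 rose by 1.96 with paraquat (SE 0.36, adjusted p = 0.000274), where its other probe sets gave 2.66 and 2.46. It rose by 1.39 in isp-1 ced-4 relative to ced-4 (SE 0.39, adjusted p = 0.0061), where they gave 3.17 and 1.61. nhr-6, the NR4A-type receptor that shapes the spermatheca, had 5.48, 5.11 and 4.44 in isp-1, 5.08, 5.46 and 5.34 in nuo-6 and 4.99, 5.57 and 5.30 in isp-1 ced-4, against 3.98, 4.15 and 3.57 in ced-4 and 3.33, 3.80, 4.60 and 3.15 in wild type. Wild type replicate 3 overlapped the isp-1 arrays. The rise of nhr-6 was 1.29 in isp-1 (SE 0.31, adjusted p = 0.00673), 1.57 in nuo-6 (SE 0.31, adjusted p = 0.00109) and 1.39 in isp-1 ced-4 relative to ced-4 (SE 0.33, adjusted p = 0.00219). With only isp-1 and wild type fitted, its rise in isp-1 was not called (limma, adjusted p = 0.0939). nhr-40 was called in no comparison.

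Nuclear receptors without an nhr name were read for comparison. daf-12, the receptor for bile acid-like dafachronic acids, rose by 0.86 in isp-1 and by 0.93 in nuo-6, and it fell by 0.73 in isp-1 ced-4 relative to isp-1. sex-1, which takes part in sex determination, rose by 2.34 with paraquat, by 1.41 in ced-4 and by 1.44 in isp-1 ced-4 relative to isp-1, and fell by 1.07 in nuo-6 ced-4 relative to ced-4. Of 5 genes for DAF-12 ligand synthesis or its corepressor only daf-36 was tested, and it was not called in any comparison. unc-55, odr-7 and fax-1, which act in neurons, were not tested.

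By position in the RefSeq annotation of WBcel235, 163 of the 253 members lie on chromosome V, of which 48 (29.4%) were tested. The shares tested were 27.8% on chromosome I (5 of 18), 46.2% on II (6 of 13), 62.5% on III (5 of 8), 53.6% on IV (15 of 28) and 56.5% on X (13 of 23). Of 97 pairs of neighbouring members in that annotation, 11 had both genes tested. nhr-65 and nhr-230 are such neighbours on chromosome V, with rises of 1.43 and 1.99 in isp-1 and of 1.53 and 1.56 in nuo-6. nhr-130 and nhr-212 rose by 0.66 and 0.60 in isp-1 and by 0.98 and 1.06 in nuo-6. In nuo-6 both genes were also called higher for nhr-115 and nhr-226 (1.97 and 0.85), nhr-154 and nhr-153 (0.57 and 0.95), and nhr-153 and nhr-136 (0.95 and 1.77). Of nhr-173 and nhr-137, neighbours on chromosome X, nhr-173 differed by -0.47 in isp-1 and was not called, where nhr-137 rose by 1.70. These pairs were named after their values were seen.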

How the data were processed

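Total RNA of hand-picked worms was labelled with a kit that copies transcripts from the 3' end and hybridised to 22 arrays. The deposited log2 values were made by the authors with GCRMA, per the submitters' processing notes; the sources used here give neither its version, nor the log base, nor whether the arrays were normalized jointly. Base 2 was inferred from the values, which run from 0.926 to 15.25. GCRMA corrects background by probe sequence, which leaves low values uncertain, and its quantile step takes most transcripts to be unshifted. Arrays have no read depth, and their number limits the precision.

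Of 22625 probe sets, 77 controls were left out, and 12639 that reached the table median on at least 3 arrays were tested. Symbols came from the platform annotation, updated by entrez ID for 20701 of the 20766 probe sets with 1 symbol; another 887 carried several symbols and 895 no symbol, and these named no gene. The tested probe set with the highest mean stood for a gene. Of the tested members, 19 were read by probe sets that may bind related transcripts and are uncertain (among those named nhr-2, nhr-3, nhr-4, nhr-6, nhr-20, nhr-21, nhr-23, nhr-61, nhr-65, nhr-86, nhr-107 and nhr-110), and 18 had more than 1 tested probe set. Levels were not compared between probe sets.

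A means model of 7 groups was fitted with limma 3.58.1 in R 4.3.3 (lmFit, eBayes), so all comparisons share 1 estimate of the spread. The groups themselves differed in spread. Over nhr genes the median SD was 0.43 in wild type, 0.32 in isp-1 and 0.31 in nuo-6. It was 0.25 for isp-1 ced-4, 0.23 with paraquat, 0.18 for ced-4 and 0.17 for nuo-6 ced-4. The shared estimate does not follow these differences, so counts and p-values against wild type cannot be compared with those against ced-4. Tests were two-sided, and calls used an adjusted p (Benjamini-Hochberg, over all tested probe sets) under 0.05. Differences are log2, first-named group minus the other, with SE from the model. Up to 6 members with the largest rise and 6 with the largest fall were named per comparison among called members whose arrays did not overlap, up to 3 each way for interactions, and called members of 3 role lists; other genes were named after their values were seen, where the text says so, or as counted or listed members. The members and lists were chosen with earlier results of these data known. The fit was tested on simulated data in which 200 of 12639 probe sets differed. For isp-1 against wild type it recovered 90% of log2 changes of 2 and 66% of those of 1. For the interaction of isp-1 with ced-4 it recovered 83% and 38%. The simulation drew independent normal noise with 1 spread per probe set for all groups and held no outlying arrays. These shares therefore check the code and do not give the recovery in these data. Alternatives were 3 other filters, loess, median centring, fits of the compared groups alone, a block for the replicate number, trend and robust options, other probe sets for a gene, and arrays left out.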

Additional observations from a re-analysis of the deposited data

Results flagged for a closer look

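Among the 42 named genes, 2 had a wild type array far from the other 3. nhr-193 had 3.73 in wild type replicate 3 against 2.82 to 2.85 on the others, and nhr-230 had 3.18 in wild type replicate 2 against 2.77 to 2.83. Chance flags about 1 in 20 groups.

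By the interaction term of the limma fit for isp-1, 8 of the 92 tested members were called, beside 18.4% of all genes. For these the effect of isp-1 was estimated to differ between the ced-4 background and animals without the ced-4 mutation. The values were -1.26 for nhr-230, -1.17 for nhr-193, 1.16 for nhr-88, 1.07 for nhr-71, 1.03 for nhr-66, 0.92 for nhr-70, 0.78 for nhr-49 and 0.76 for nhr-23. For nuo-6, 4 members were called, beside 11.4% of all genes, with 4.34 for nhr-17, -4.06 for nhr-114, -2.79 for nhr-3 and 1.67 for nhr-105. Their adjusted p-values lay between 0.00298 for nhr-17 and 0.0488 for nhr-193. Most of these calls depended on single arrays. Of 13 arrays left out in turn, 11 ended the isp-1 call of nhr-88, 10 that of nhr-193 and 9 that of nhr-66. For nhr-23 it was 8, for nhr-230 7, for nhr-49 6 and for nhr-71 5. The nuo-6 call of nhr-3 ended without any of 12 arrays and that of nhr-105 without any of 10. Those of nhr-17 and nhr-114 never ended.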

How the results depend on the processing

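Across 98 calls of named genes, no setting turned a direction: in 953 refits under other settings 862 kept the call and 91 lost it, and in 703 refits without 1 array 535 kept it and 168 lost it. Counts of nhr genes called moved by over 1.5 times in 25 of 119 refits under other settings and in 27 of 84 without 1 array. The stricter filter, which left 12 members tested, gave by limma 0 in isp-1 (0 also at an unadjusted p under 0.05), 1 in nuo-6, 3 with paraquat, 1 in the ced-4 group, 5 in isp-1 ced-4 relative to isp-1, 8 in isp-1 ced-4 relative to ced-4, 5 in nuo-6 ced-4 relative to nuo-6, 3 in nuo-6 ced-4 relative to ced-4, and 5 and 1 for the interactions of isp-1 and nuo-6. Fitting only the groups compared gave 9 in isp-1, 19 in nuo-6, 3 in the ced-4 group, 4 in isp-1 ced-4 relative to isp-1, 42 in nuo-6 ced-4 relative to ced-4 and 2 for the isp-1 interaction. In isp-1 it ended the calls of nhr-61, nhr-210, nhr-137, nhr-6 and nhr-13. In ced-4 it ended those of nhr-42, nhr-105, nhr-86, nhr-179 and nhr-64. Without probe sets that may bind related transcripts paraquat gave 13. With no filter isp-1 ced-4 relative to isp-1 gave 20 and the nuo-6 interaction 2. With wild type replicate 1, isp-1 replicate 1 and isp-1 ced-4 replicate 1 left out together, chosen after seeing the data, ced-4 gave 24, nuo-6 against isp-1 12, and the interactions 15 for isp-1 and 11 for nuo-6. Without 1 array the counts ranged from 4 to 20 in ced-4, 0 to 9 for nuo-6 against isp-1, 13 to 25 for nuo-6 ced-4 relative to nuo-6, 0 to 11 for the isp-1 interaction and 2 to 8 for the nuo-6 interaction; from 18 to 25 in isp-1, 27 to 37 in nuo-6, 20 to 29 with paraquat, 8 to 12 for isp-1 ced-4 relative to isp-1, 31 to 39 for isp-1 ced-4 relative to ced-4 and 15 to 18 for nuo-6 ced-4 relative to ced-4. The cause was not tested. Deviations of arrays with the same replicate number in different groups correlated from -0.25 to 0.28, with 12 of 63 pairs over 0.1. For arrays with different numbers the range was -0.34 to 0.32, with 25 of 144 pairs over 0.1. No pairing over all groups was seen. The check cannot exclude that some arrays were paired, as isp-1 replicate 1 and nuo-6 replicate 1 correlated at 0.25. The replicate block gave 6 in ced-4 and 2 for the nuo-6 interaction; the other block counts were 19 in isp-1, 31 in nuo-6 and 22 with paraquat. Loess moved the median difference of all genes by -0.15 in isp-1 ced-4 relative to ced-4 and by 0.10 in nuo-6 ced-4 relative to nuo-6. Low signal over background limits the 161 members that were not tested.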
